A study of Mus musculus with 6 samples.

Results

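The array measured the genes of 298 microRNA probe sets, carrying 293 gene symbols, in mouse hearts with an added copy of miR-499. They were chosen from the 35556 probe sets of the table by name alone: every probe set with a single gene symbol that starts with Mir and a number or with Mirlet7. The genes of the heart and skeletal muscle microRNAs (Mir499, Mir208a, Mir208b, Mir206 and the Mir1 and Mir133a copies) were left out, which removed 7 probe sets. A further 61 probe sets with a microRNA among several symbols were not used. Of the 298, 291 stand for microRNA genes and 7 for host genes, the long transcripts from which a microRNA is cut (Mir99ahg with 4 probe sets, and Mir17hg, Mir100hg and Mir670hg).

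RNA came from the cardiac ventricles of 3 transgenic (TG) and 3 wild-type (WT) mice at postnatal day 17, on 1 Affymetrix array per mouse. The TG mice belong to line TG-17, made in FVB/NCrl embryos, in which the Myh6 promoter drives miR-499 in heart muscle cells, and the WT mice are littermates without the transgene. The comparison asks which transcripts differ in hearts with a moderate excess of miR-499, and here it is read for the other microRNA genes. Values are log2 values per probe set. Mir499, which checks the labels, was at 9.31, 9.33 and 8.87 in the TG-17 mice, against 5.48, 5.34 and 5.68 in the WT mice. The 4 ventricle marker genes were at mean log2 values of 8.59 to 13.95, and 3 of 4 neuron markers were at or below the level taken as dim further on. The array medians were 6.89 to 6.91 in TG-17 and 6.93 to 6.95 in WT. All 4 atrial markers were lower in TG-17 at an unadjusted p under 0.05. Of these, Myl7 (-0.64, B = 0.36) and Myl4 (-0.66, B = 0.21) passed the study's less stringent cut-off, a log odds of change (B) above 0. The summed linear level of the 4 atrial markers was 3.07e+03 to 3.24e+03 in TG-17 and 3.71e+03 to 4.52e+03 in WT. The part of atrial content in the values of the microRNA genes was not tested.

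A microRNA is transcribed as part of a longer primary transcript, alone, in a cluster with others or inside the intron of a host gene. A hairpin is cut out of this transcript and then trimmed to the short mature strand, whose seed (bases 2 to 8) pairs with target messenger RNAs and lowers their output. MicroRNAs with the same seed are grouped as a family, since they can pair with the same sites. The probe sets are annotated to the gene of a hairpin or to a host gene. Whether they detect the primary transcript, the hairpin or both was not tested here, and their values are not read as amounts of the mature strand. Copies that give the same mature strand from different chromosomes are therefore separate members here.

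The mature sequences below, from RefSeq (GRCm38.p6), belong to the members on which the results turn and to the families they form. They run 5′ to 3′ with the seed in capitals. A hairpin was matched for 257 of the 298 members and at least 1 mature sequence for 268. The first is the strand of the member that passed the cut-off of the study, the next group shares the let-7 seed, and the following ones show the miR-15, miR-181, miR-25, miR-365, miR-99 and miR-125 seeds.
miR-200c-3p (Mir200c, chromosome 6): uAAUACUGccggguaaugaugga
let-7c-5p (Mirlet7c-1, chromosome 16): uGAGGUAGuagguuguaugguu
let-7f-5p (Mirlet7f-1, chromosome 13): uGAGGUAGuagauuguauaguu
let-7g-5p (Mirlet7g, chromosome 9): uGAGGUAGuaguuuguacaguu
miR-15a-5p (Mir15a, chromosome 14): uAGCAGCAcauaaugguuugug
miR-16-5p (Mir16-1, chromosome 14): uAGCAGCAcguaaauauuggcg
miR-195a-5p (Mir195a, chromosome 11): uAGCAGCAcagaaauauuggc
miR-497a-5p (Mir497, chromosome 11): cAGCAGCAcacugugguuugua
miR-181b-5p (Mir181b-1, chromosome 1): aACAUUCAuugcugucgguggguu
miR-181d-5p (Mir181d, chromosome 8): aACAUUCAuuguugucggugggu
miR-363-3p (Mir363, chromosome X): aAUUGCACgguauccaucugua
miR-32-5p (Mir32, chromosome 4): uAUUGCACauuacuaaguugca
miR-92a-3p (Mir92-2, chromosome X): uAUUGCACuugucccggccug
miR-365-3p (Mir365-1, chromosome 16, and Mir365-2, chromosome 11): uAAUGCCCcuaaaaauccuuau
miR-99a-5p (Mir99a, chromosome 16): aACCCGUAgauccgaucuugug
miR-125b-5p (Mir125b-2, chromosome 16): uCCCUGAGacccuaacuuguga

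Most of the microRNA genes were dim on this array. Their mean log2 value over the 6 arrays had a median of 5.72, with quartiles of 4.42 and 6.95 and a range of 2.91 to 10.24. The median of all 21789 probe sets with 1 gene symbol was 7.30. As a reference for genes that a heart should not use, 1205 probe sets of olfactory and vomeronasal receptors, genes of sensory neurons, had a median of 4.46, and their 95th percentile of 6.26 was taken as the limit of dimness. Above it lay 113 of 298 microRNA probe sets (37.9%), against 68.8% of the probe sets with 1 symbol. The 56 probe sets of small nucleolar RNAs, which are also short noncoding genes, had a median of 7.0, and 80.4% of them were above the limit. The limit describes dimness and is no detection call, since the table holds none. A dim probe set may lie on a gene that is off or on one that its probes capture poorly, and levels of different probe sets cannot be ranked as amounts of RNA.

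**Figure D1:**
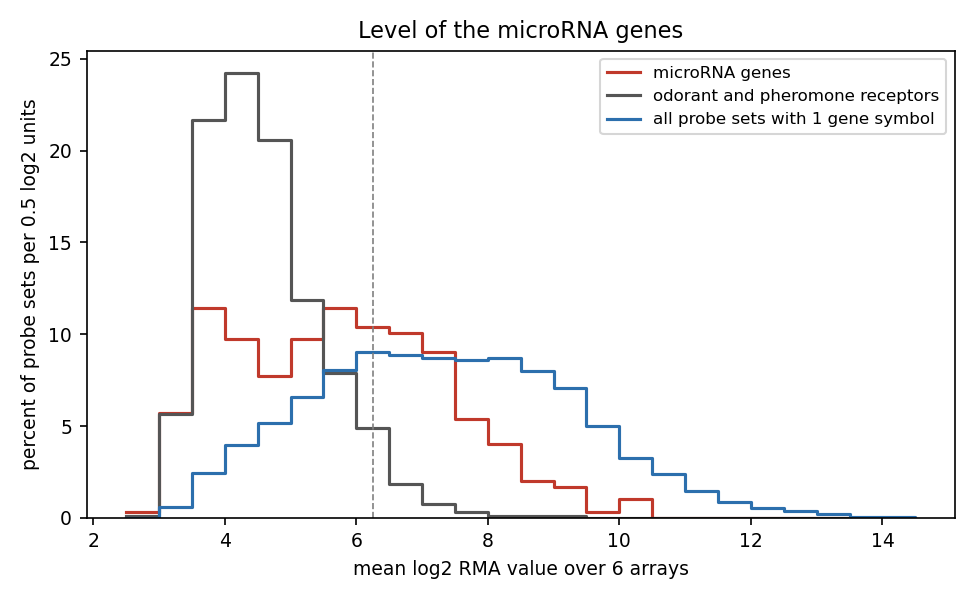
Mean log2 value over 6 arrays (x axis) of the microRNA genes (red), olfactory and vomeronasal receptor probe sets (grey) and all probe sets with 1 gene symbol (blue), as the percent of each class per bin (y axis). The dashed line marks the receptor limit of 6.26, which 37.9% of the microRNA genes and 68.8% of all probe sets with 1 symbol exceed.

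The level of a microRNA gene went with the base composition of its hairpin. Over the 257 members with a RefSeq hairpin, the percent of G and C correlated with the mean log2 value (Pearson's r = 0.70, Spearman's rho = 0.72). These members share the same 6 arrays and are not independent replicates. Among the members with a hairpin, the median share of G and C was 59.9% in the 12 brightest, 47.4% over all and 33% in the 12 dimmest. Mir568 stood apart from this trend, with 31.3% G and C and a mean log2 value of 9.01. Members that are well known from heart studies were found at high and at low levels. Mir320, for which no hairpin was matched, was among the brightest at 8.79. Mir29b-1, whose microRNA represses collagen genes, had a mean of 3.45 in TG-17 and 3.43 in WT.

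**Figure D2:**
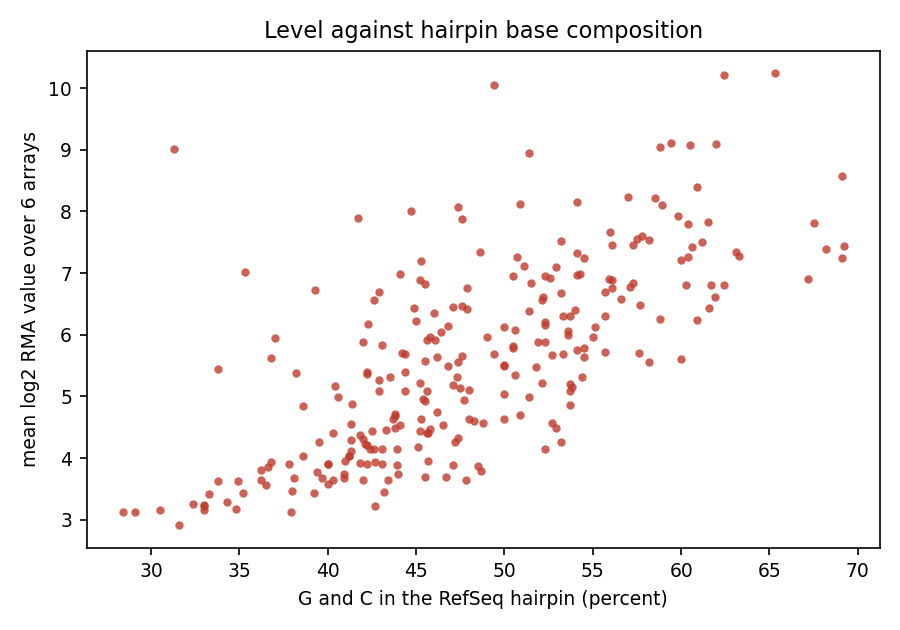
Mean log2 value over 6 arrays (y axis) against the percent of G and C in the RefSeq hairpin (x axis), 1 point per microRNA probe set, n = 257. The correlation across probe sets is r = 0.70, and the point at 31.3% and 9.01 is Mir568.

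The 12 brightest members were Mir346, Mir692-1, Mir680-3, Mir383, Mir341, Mir667, Mir194-2, Mir139, Mir568, Mir181d, Mir320 and Mir210, with mean log2 values of 10.24 down to 8.58. Mir346, the brightest, read 10.15 ± 0.035 in TG-17 and 10.34 ± 0.076 in WT (SD, n = 3 each). The difference was -0.19 on the log2 scale (limma, unadjusted p = 0.0159, adjusted p = 0.259), and its groups did not overlap. Without 1 mouse in turn, its unadjusted limma p was 0.00823 to 0.0554. Mir210, the microRNA of the hypoxia response, had means of 8.52 ± 0.05 in TG-17 and 8.63 ± 0.031 in WT. The groups of Mir210 did not overlap either (limma, unadjusted p = 0.0646, adjusted p = 0.35). Mir341 and Mir667, both of the imprinted region on chromosome 12, had group means within 0.045 of each other on the log2 scale.

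In the comparison of TG-17 with WT, 1 of the 298 microRNA probe sets passed the study's less stringent cut-off, a log odds of change (B) above 0. That was 0.336% of the members, against 0.366% of all probe sets (0.155% with TG-17 above WT and 0.211% below). No member passed an adjusted p of 0.05 in limma, against 0.00562% of all probe sets, that is 2. At an unadjusted p under 0.05 there were 56 members (18.8%), against 15.5% of all probe sets, a share near the background. Their directions were uneven. Of the members 9 (3.02%) were higher in TG-17, against 6.97% of all probe sets, and 47 (15.8%) were lower, against 8.50%. The TG-17 values were all above the WT values for 10 members (3.36%), against 11.3% of all probe sets, and all below them for 54 (18.1%), against 12.1%.

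Fold changes were small throughout. The log2 difference ran from -0.54 to 0.46, and no member reached a change of 1.5-fold in either direction. The share that did was 1.4% of all probe sets, but 0.165% of those with 1 gene symbol, the class to which the members belong. The SD among mice had a median of 0.11 in TG-17 and 0.097 in WT on the log2 scale. The difference was negative for 224 members (75.2%) and positive for 74, with a median of -0.088. Over all probe sets the median was -0.014, and 53.9% were negative. The median value of the members was 5.74, 5.65 and 5.68 in the TG-17 mice, against 5.85, 5.79 and 5.77 in the WT mice, so that each TG-17 array was below each WT array.

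The balance was also counted with another scaling of the arrays. With each array centred on its own median, 16 members had TG-17 above WT at an unadjusted limma p under 0.05 and 28 below, against 12.8% higher and 4.33% lower over all probe sets. The median difference of the members was then -0.036 and that of all probe sets 0.037. With and without centring, the median of the members was below that of all probe sets. Without centring, the receptor probe sets had a median difference of -0.046, with 64.8% negative, 23 higher and 99 lower at that p. Also without centring, the small nucleolar RNA probe sets had a median of 0.062, with 5 higher and 5 lower. The part of array scaling and of dimness in the balance of the microRNA genes was not tested further.

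Members above the receptor limit had more negative differences than those at or below it. Of the 113 members above the receptor limit, 97 were negative and 16 positive, with a median of -0.12. The 185 members at or below it had a median of -0.063, with 127 negative and 58 positive. In the brightest of 4 level bands with near equal numbers of members, from 6.95 to 10.24, 18 had TG-17 below WT at an unadjusted p under 0.05 (24%) and 2 above, and their median was -0.12. The 14828 other probe sets of that range had a median of 0.0089, with 9.78% higher and 7.84% lower at that p. In the dimmest band, from 2.91 to 4.42, the medians were -0.046 for the members and -0.024 for the others. The share of G and C, which went with the level, also went with the difference (r = -0.27, rho = -0.30, n = 257 members), and its part in the result was not tested.

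**Figure D3:**
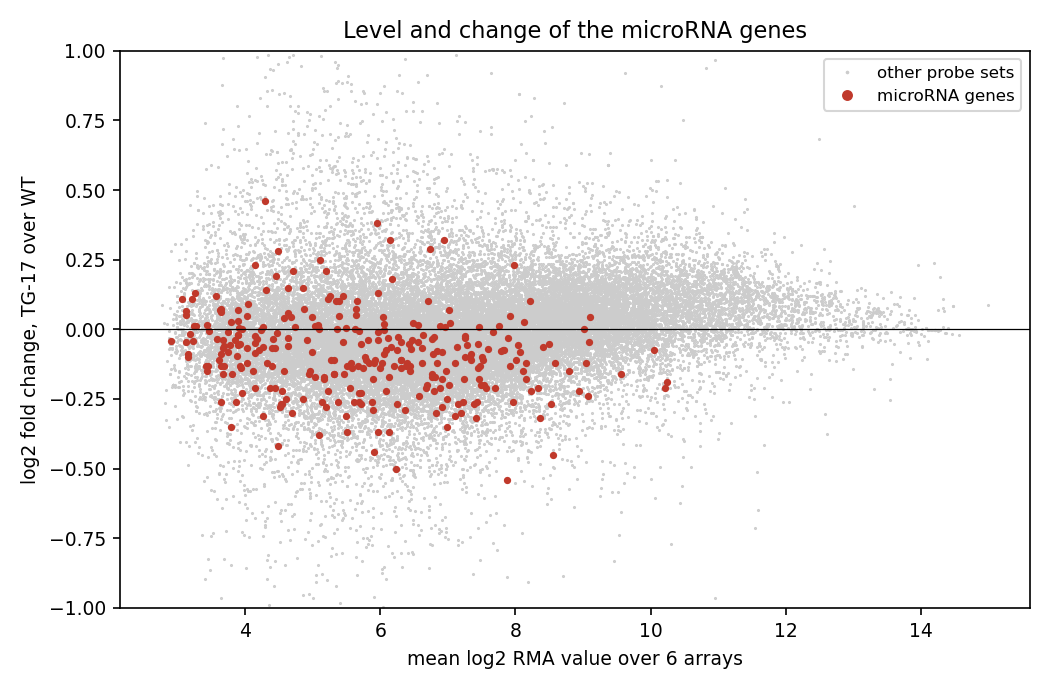
Difference between TG-17 and WT on the log2 scale (y axis, positive when higher in TG-17) against the mean log2 value over 6 arrays (x axis), for the 298 microRNA probe sets (red) and all others (grey; 53 lie beyond the y axis). The red points lie between -0.54 and 0.46, and 224 of them are below 0.

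Mir200c was the member that passed B above 0. With Mir141 it forms 1 of the clusters of the miR-200 family, which keeps epithelial cells epithelial by repressing Zeb1 and Zeb2. Mir200c read 5.92, 5.95 and 5.95 in the TG-17 mice, against 6.39, 6.29 and 6.25 in the WT mice. The groups did not overlap, and both lay near the limit of dimness. Its difference was -0.37 ± 0.056 (SE) on the log2 scale, a ratio of 0.773 of TG-17 over WT, with B = 0.35 (limma, unadjusted p = 0.000514, adjusted p = 0.205). Without any 1 of the 6 mice, TG or WT, B was no longer above 0, while the difference stayed at -0.40 to -0.33 with an unadjusted limma p of 0.00108 to 0.00264. B was also not above 0 with median centring, a second quantile normalization, an intensity trend or the replicate number as a block. Under the settings with all mice the adjusted p was 0.0757 to 0.318. Mir141, its neighbour in the cluster, had means of 4.61 in TG-17 and 4.64 in WT. Mir200b, which shares the seed of Mir200c but lies elsewhere, had means of 4.95 in TG-17 and 5.03 in WT (limma, unadjusted p = 0.596).

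The other members with the most negative differences among those at an unadjusted p under 0.05 whose groups did not overlap were Mir181b-1, Mir145a, Mir3068, Mir140, Mir146b, Mir669b, Mir125b-2, Mir195a and Mir143. Their adjusted p in limma was 0.224 to 0.298, so none passed the test over all probe sets. Mir181b-1, of a family that tunes T cell signalling, read 5.87, 6.09 and 5.96 in the TG-17 mice, against 6.67, 6.57 and 6.18 in the WT mice. WT replicate 3 was close to the TG-17 mice, and the difference of -0.50 ± 0.14 (SE; limma, unadjusted p = 0.0105) was -0.65 without it, where B was 0.22. Mir140, a microRNA of cartilage within Wwp2, read 4.0, 4.39 and 4.41 in TG-17, against 4.64, 4.70 and 4.72 in WT. TG-17 replicate 1 was the lowest, and without 1 mouse in turn the difference of -0.42 ran from -0.49 to -0.29.

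Mir195a belongs to the miR-15 family, which is known to hold back division of heart muscle cells after birth in mice. Its values were 6.95, 6.80 and 6.68 in the TG-17 mice, against 7.22, 7.20 and 7.06 in the WT mice. Every TG-17 value was below every WT value, with a difference of -0.35 ± 0.087 (SE; limma, unadjusted p = 0.00643, adjusted p = 0.232). Mir125b-2, a relative of the nematode microRNA lin-4, was at 3.61, 3.62 and 3.62 in TG-17, against 3.84, 4.07 and 4.0 in WT. These are among the dimmer values of the table, below the receptor median of 4.46. The difference of -0.35 had an unadjusted limma p of 0.00214. Mir669b belongs to a repeated microRNA family whose copies the probes may not tell apart. It differed by -0.37, Mir146b by -0.37 and Mir3068 by -0.44. Of these, Mir146b, whose microRNA damps inflammatory signalling through Traf6 and Irak1, and Mir3068 kept an unadjusted p under 0.05 in 3 of the 6 fits that left out a mouse, and Mir669b in all 6.

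Mir145a and Mir143 come from 1 locus and are microRNAs of smooth muscle cells. Mir145a read 8.41, 8.43 and 8.14 in the TG-17 mice, against 9.08, 8.77 and 8.47 in the WT mice. TG-17 replicate 2 and WT replicate 3 nearly met, and the difference of -0.45 ± 0.17 (SE; limma, unadjusted p = 0.0355) kept an unadjusted p under 0.05 in 1 of the 6 fits without a mouse. Mir143 read 7.39, 7.33 and 7.07 in TG-17, against 7.65, 7.55 and 7.55 in WT. Its groups did not overlap, with a difference of -0.32 (limma, unadjusted p = 0.0146) that kept its side in all 6 of those fits. Of the 4 smooth muscle marker genes 3 were also lower at an unadjusted p under 0.05, namely Myh11 (-0.31), Acta2 (-0.22) and Cnn1 (-0.43). The groups of Cnn1 overlapped. Of 4 skeletal muscle markers, 3 of them dim, 2 were lower at that p, namely Myh4 (-0.18) and Myog (-0.16). The summed linear level of the 4 smooth muscle markers, of which Acta2 was the brightest, was 5.7e+03 to 6.21e+03 in TG-17 and 6.6e+03 to 7.3e+03 in WT. In tissue RNA, fewer cells of a type and less RNA per cell cannot be told apart, and the part of smooth muscle content in these values was not tested.

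**Figure D4:**
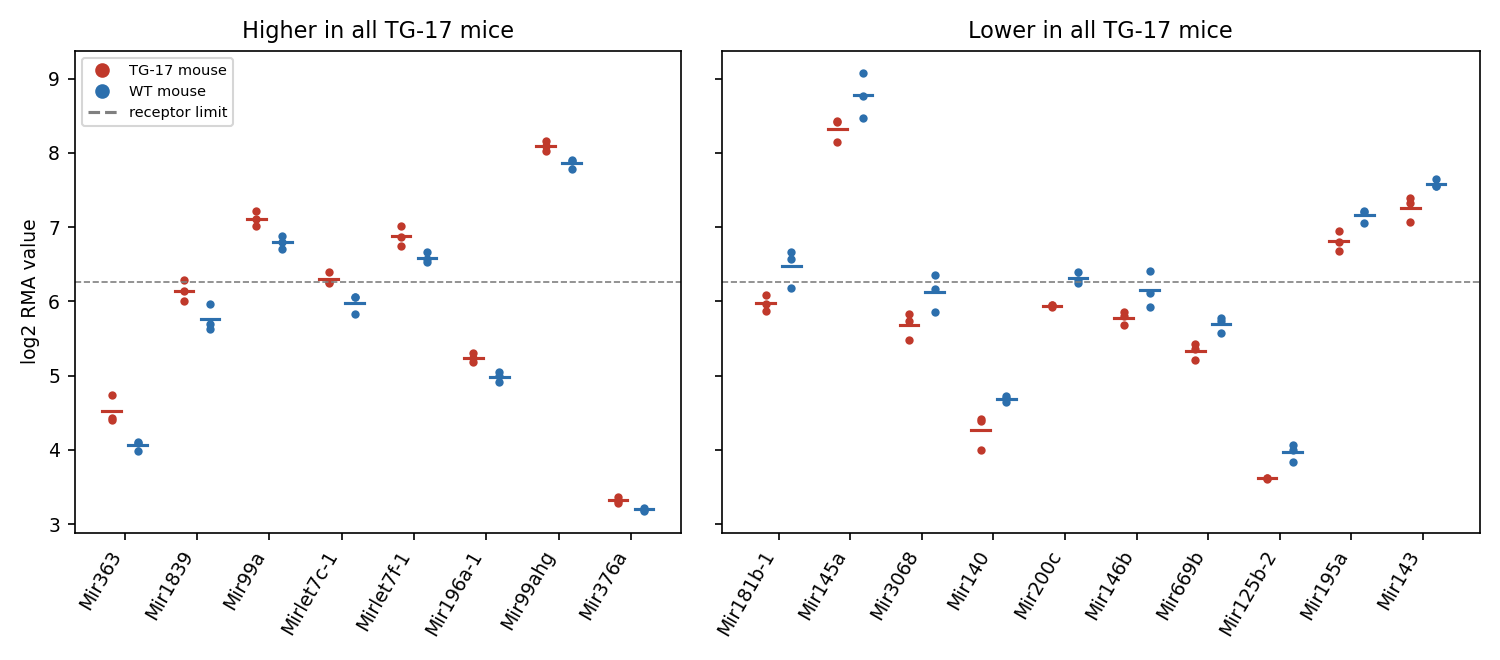
Log2 value of each mouse (y axis; TG-17 red and left, WT blue and right, bars are means) for the members at an unadjusted p under 0.05 whose groups do not overlap, with the 8 that were higher in TG-17 on the left and the 10 with the most negative differences on the right. The dashed line is the receptor limit of 6.26, and no gene shows a gap between groups as large as 1.5-fold in its means.

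Only 8 members met the same conditions with a higher value in TG-17: Mir363, Mir1839, Mir99a, Mirlet7c-1, Mirlet7f-1, Mir196a-1, 1 probe set of Mir99ahg and Mir376a. Their adjusted p in limma was 0.224 to 0.312. Mir363, of the cluster on chromosome X that is a paralogue of miR-17-92, read 4.43, 4.4 and 4.74 in the TG-17 mice, against 4.09, 4.11 and 3.99 in the WT mice. TG-17 replicate 3 was the highest, and the difference of 0.46 ± 0.1 (SE; limma, unadjusted p = 0.00356) was 0.35 to 0.52 without 1 mouse in turn. All these values lie well below the receptor limit. Mir1839 was at 6.29, 6.14 and 6.0 in TG-17, against 5.97, 5.63 and 5.69 in WT. TG-17 replicate 3 and WT replicate 1 nearly met, and its difference of 0.38 (limma, unadjusted p = 0.0171) kept an unadjusted p under 0.05 in 3 of the 6 fits without a mouse. Mir196a-1, a microRNA gene of the Hoxb cluster, differed by 0.25 (limma, unadjusted p = 0.00601), and Mir376a, of the imprinted cluster on chromosome 12, by 0.13 (limma, unadjusted p = 0.0438) at a mean of 3.32 in TG-17 and 3.20 in WT. Mir376a kept an unadjusted p under 0.05 in 0 of the 6 fits without a mouse.

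Several members that stood out lie together on chromosome 16. Mir99a, whose family represses Mtor, read 7.21, 7.11 and 7.02 in the TG-17 mice, against 6.70, 6.88 and 6.80 in the WT mice. Mirlet7c-1, within 10 kb of it on the same strand, read 6.39, 6.25 and 6.26 in TG-17, against 5.83, 6.06 and 6.06 in WT. Both were higher in every TG-17 mouse, by 0.32 ± 0.076 for Mir99a (SE; limma, unadjusted p = 0.00548) and 0.32 ± 0.084 for Mirlet7c-1 (SE; limma, unadjusted p = 0.00875). Both kept an unadjusted p under 0.05 in all 6 fits without a mouse. Mir125b-2, the remaining microRNA gene known from the same primary transcript, had a negative difference, -0.35, as given above.

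Mir99ahg, the long noncoding RNA gene named as the host of this group, had probe sets that disagreed. The 1 that was higher read 8.09, 8.16 and 8.03 in the TG-17 mice, against 7.89, 7.90 and 7.78 in the WT mice, a difference of 0.23 (limma, unadjusted p = 0.00804). Another read 6.89, 7.16 and 7.0 in TG-17, against 7.29, 7.27 and 7.31 in WT, a difference of -0.27 (limma, unadjusted p = 0.0115). The groups of each did not overlap, in opposite directions. The remaining probe sets of Mir99ahg differed by -0.13 and -0.12, with overlapping groups. Mir365-1, also on chromosome 16 but of another family, differed by -0.29 (limma, unadjusted p = 0.0411), with overlapping groups.

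Grouped by seed, the larger families held members on both sides of WT. Members with a mature sequence formed 68 groups of 2 or more, among them a group of the 3 probe sets of Mir713 alone. None of the 268 with a sequence shared the seed of miR-499-5p. The let-7 seed, of microRNAs that mark differentiation and repress Lin28 and Hmga2, was found in the matched sequences of 9 members. Of these, 3 had a positive and 6 a negative difference. Mirlet7a-2, a let-7 gene by name, was not grouped by this seed and is not among the 9. It differed by -0.011 (limma, unadjusted p = 0.853). Mirlet7f-1 read 7.01, 6.75 and 6.87 in the TG-17 mice, against 6.67, 6.57 and 6.53 in the WT mice, a difference of 0.29 without overlap (limma, unadjusted p = 0.0124). Mirlet7a-1, in the same cluster on chromosome 13, averaged 6.57 ± 0.093 in TG-17 and 6.56 ± 0.26 in WT (SD, n = 3 each), and Mirlet7d differed by -0.11 (limma, unadjusted p = 0.196). Mirlet7g was at 5.82, 5.65 and 5.78 in TG-17, against 6.18, 5.90 and 5.95 in WT, a difference of -0.26 (limma, unadjusted p = 0.0301). At an unadjusted p under 0.05, 2 of the 9 were higher and 1 lower, against 6.97% higher and 8.50% lower over all probe sets. None of them passed an adjusted p of 0.05 in limma.

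The miR-15 seed was carried by 6 members, of which 3 were lower at an unadjusted p under 0.05 and none higher, beside 8.50% lower over all probe sets and 15.8% over the members. Mir15a and Mir16-1, neighbours in the Dleu2 locus on chromosome 14 known for limiting Bcl2, were both among them. Mir15a read 8.19, 8.19 and 8.29 in the TG-17 mice, against 8.42, 8.49 and 8.39 in the WT mice, a difference of -0.21 (limma, unadjusted p = 0.00959). Mir16-1 read 6.76, 6.94 and 6.86 in TG-17, against 7.07, 7.24 and 6.98 in WT, a difference of -0.25 (limma, unadjusted p = 0.0291). Neither pair of groups overlapped, although Mir16-1 kept an unadjusted p under 0.05 in only 2 of the 6 fits without a mouse. Mir195a, given above, was the other one, while its cluster neighbour Mir497 differed by -0.12 with overlapping groups (limma, unadjusted p = 0.372). Mir16-2 on chromosome 3, which gives the same mature strand as Mir16-1, averaged 5.63 ± 0.19 in TG-17 and 5.63 ± 0.13 in WT (SD, n = 3 each).

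Among the 6 members with the miR-181 seed, Mir181b-1 and Mir181d were lower at an unadjusted p under 0.05. The share lower at that p was 8.50% over all probe sets and 15.8% over the members. Mir181d read 9.0, 8.78 and 8.72 in the TG-17 mice, against 9.09, 9.03 and 9.03 in the WT mice. Its TG-17 replicate 1 came close to the WT values, and the difference of -0.22 (limma, unadjusted p = 0.0389) kept an unadjusted p under 0.05 in 1 of the 6 fits without a mouse. The miR-25 seed held members in both directions. Beside Mir363 at 0.46, Mir32 read 4.63, 4.71 and 4.83 in TG-17, against 5.06, 4.94 and 4.92 in WT, a difference of -0.25 (limma, unadjusted p = 0.0132). Mir92-2, which lies in the same cluster as Mir363, differed by -0.16 (limma, unadjusted p = 0.0648).

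Mir365-1 and Mir365-2, which give the same mature strand from chromosomes 16 and 11, were both lower in TG-17. Mir365-2 read 6.69, 6.62 and 6.73 in the TG-17 mice, against 6.88, 7.11 and 6.94 in the WT mice. The difference was -0.30 ± 0.075 (SE; limma, unadjusted p = 0.00721), without overlap. The miR-99 seed was carried by 3 members, of which Mir99a was higher, while Mir99b (-0.21; limma, unadjusted p = 0.157) and Mir100 (-0.26; limma, unadjusted p = 0.108) had negative differences with overlapping groups. Of the 3 with the miR-125 seed, Mir125b-2 and Mir125a (-0.22; limma, unadjusted p = 0.0172) were lower, and Mir125b-1 averaged 4.27 in TG-17 and 4.26 in WT. For the seeds of this paragraph too, the shares at an unadjusted p under 0.05 are 8.50% lower and 6.97% higher over all probe sets. Over the members they are 15.8% lower and 3.02% higher.

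**Figure D5:**
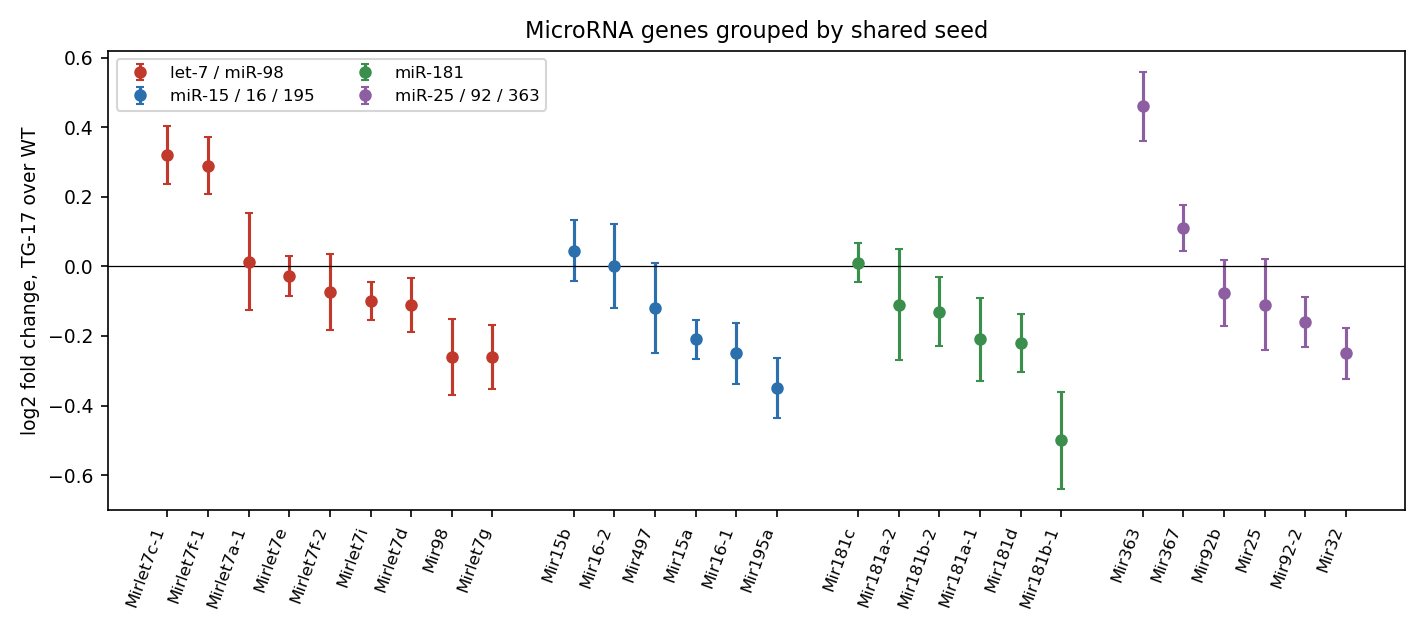
Difference between TG-17 and WT on the log2 scale (y axis, positive when higher in TG-17) for the microRNA genes grouped by matched sequence into 4 seed families (colours), without Mirlet7a-2. Each gene is 1 point with its SE from limma. In the let-7 and miR-25 families points lie on both sides of 0, from -0.26 to 0.32 and from -0.25 to 0.46, and in the miR-181 family 5 of 6 lie below it.

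By position, 142 members lay in 43 clusters, taken as genes within 10 kb on the same strand. The 3 probe sets of Mir713 alone count as 1 of these clusters. The largest cluster, on chromosome 12 in the imprinted region between Dlk1 and Dio3 and transcribed from the maternal copy, held 30 members. Of these, 9 had positive and 21 negative differences, with a median of -0.05 and a range of -0.38 to 0.19. At an unadjusted p under 0.05, 1 was higher (Mir376a) and 3 lower, namely Mir300 (-0.38), Mir382 (-0.31) and Mir496a (-0.21), beside 6.97% higher and 8.50% lower over all probe sets. In Mir382 and Mir496a the groups did not overlap, and in Mir300 they did. Only 7 of the 30 were above the receptor limit, and the cluster ranged from 3.13 to 9.09.

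Lists of microRNA genes known from the heart and from other cell types are given by counts and medians, beside the median of -0.088 over all members. Of the 34 microRNA genes linked to remodelling of the heart, 9 were lower and none higher at an unadjusted p under 0.05, with a median of -0.119. For this list and those that follow, the shares at that p are 8.50% lower and 6.97% higher over all probe sets, and 15.8% lower and 3.02% higher over the members. The lower ones were Mir150, Mir15a, Mir328, Mir199a-1, Mir195a, Mir16-1, Mir132, Mir30c-1 and Mir221. Mir150, a microRNA of lymphocytes that targets Myb, read 8.21, 8.17 and 8.24 in the TG-17 mice, against 8.60, 8.60 and 8.36 in the WT mice. The groups did not overlap, with a difference of -0.32 ± 0.079 (SE; limma, unadjusted p = 0.00694). Mir328 differed by -0.26 and Mir199a-1 by -0.31, and both kept an unadjusted p under 0.05 in only 2 of the 6 fits without a mouse. Mir320, the brightest of the list, differed by -0.15 with overlapping groups (limma, unadjusted p = 0.239).

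Among the 9 blood cell microRNA genes, 3 were lower (Mir150, Mir181b-1 and Mir146b) and none higher, beside 8.50% lower over all probe sets and 15.8% over the members, with a median of -0.116. Mir144 and Mir451a, the microRNAs of red cells, were below the receptor median of 4.46. Mir144 averaged 3.11 in TG-17 and 3.15 in WT, and Mir451a averaged 4.23 in TG-17 and 4.29 in WT. Alas2, the 1 red cell marker gene measured, was bright, at 9.47 in TG-17 and 9.52 in WT. Of 5 leukocyte marker genes, Lyz2 was higher (0.27) and Cd3e lower (-0.27) at an unadjusted p under 0.05. The summed linear level of the 5 markers was 1.54e+03 to 1.61e+03 in TG-17 and 1.39e+03 to 1.47e+03 in WT. This sum mostly follows Lyz2, the brightest of them, at 10.06 in TG-17 and 9.79 in WT. Of the others, Ptprc had a positive difference (0.058), and Cd68 (-0.12), Cd79a (-0.037) and Cd3e had negative ones. The part of blood cells in the values of the microRNA genes was not tested. Of 11 endothelial and vascular microRNA genes, 1 was higher (Mir99a) and 4 lower (Mir145a, Mir143, Mir221 and Mir125b-2), beside 6.97% higher and 8.50% lower over all probe sets, with a median of -0.165. Among the lower ones, Mir145a and Mir143 are the smooth muscle microRNA genes given above, and Mir125b-2 was dim. Mir126a, the microRNA of endothelial cells within Egfl7, averaged 6.89 ± 0.2 in TG-17 and 6.88 ± 0.2 in WT (SD, n = 3 each). None of the 4 endothelial marker genes passed an unadjusted p of 0.05.

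The 14 members of miR-17-92 and its paralogue clusters, which promote proliferation, had a median of -0.0588. Of these Mir363 and Mir18 were higher (Mir18 by 0.21, with overlapping groups) and none lower. The list of 17 genes for liver, epithelium and pancreas had a median of -0.033, with Mir196a-1 higher and Mir200c and Mir194-2 lower. This list also holds the miR-196 genes, among them Mir196a-1 of the Hoxb cluster, so its higher gene is not particular to those tissues. Mir194-2 differed by -0.24 (limma, unadjusted p = 0.0289). Of 13 neuronal genes 1 was lower, Mir124a-2 with a difference of -0.17 (limma, unadjusted p = 0.039), and the median was -0.0324. The 5 genes of the embryonic stem cell list were all below the receptor limit, at 3.22 to 3.88. Mir302a among them read 3.5, 3.54 and 3.52 in the TG-17 mice, against 3.83, 3.77 and 3.75 in the WT mice, and its difference of -0.26 had an unadjusted limma p of 0.00182 without overlap. These values lie below the receptor median of 4.46.

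The differences of microRNA genes and of their host genes showed next to no correlation. A strand was given for 276 of the 298 members, and hosts were sought only among these, without the host gene probe sets. Of the members searched, 127 lay inside a host gene on the same strand, and for 95 pairs the host had a probe set of its own. Across those pairs, which share hosts and arrays, the difference of the microRNA gene and that of the host had a Spearman correlation of -0.03, and the levels one of 0.18. Many of the differences were no larger than their SE. The correlation of the differences therefore cannot show whether a microRNA gene and its host change together. At an unadjusted p under 0.05, 6 of the 74 hosts were higher and 5 were lower, shares near the 6.97% and 8.50% over all probe sets, and none had B above 0. Mir490, within the muscarinic receptor gene Chrm2, had the most negative difference of all members and is named for that after its values were seen. It read 7.75, 7.67 and 7.39 in the TG-17 mice, against 8.39, 8.29 and 7.74 in the WT mice. TG-17 replicate 1 was above WT replicate 3, so the groups overlapped, and the difference of -0.54 ± 0.19 (SE; limma, unadjusted p = 0.0295, adjusted p = 0.286) kept an unadjusted p under 0.05 in 2 of the 6 fits without a mouse. Chrm2 itself was at 11.86, 11.82 and 11.77 in TG-17, against 11.73, 11.64 and 11.74 in WT, a difference of 0.118 in the other direction (limma, unadjusted p = 0.078).

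Other pairs went both ways. Mirlet7g, at -0.26, lies within Wdr82, which differed by 0.144 (limma, unadjusted p = 0.0193). Mir139, at 8.99 in TG-17 and 9.11 in WT, lies within Pde2a, which differed by 0.177 (limma, unadjusted p = 0.0151). Mir330 and its host Eml2 were both lower, with differences of -0.20 for Mir330 and -0.164 for Eml2. Mir188 and its host Clcn5 were also both lower, with differences of -0.28 for Mir188 and -0.161 for Clcn5, while the other microRNA genes measured within Clcn5 had differences of -0.05 to 0.05. Mir140 and Wwp2 differed by -0.42 and -0.108.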

How the data were processed

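The values deposited by the authors are log2 levels of probe sets on 6 Affymetrix arrays, which the submitters' notes attribute to RMA (background correction, quantile normalization between arrays, summary of probes). Which version of RMA was used was not given in the sources used here. Groups come from the labels, and line, strain and age from the study's methods. Of the per-sample columns, 0 were left out. Probe sets were named through the platform annotation, and positions, hosts and sequences come from RefSeq tables of GRCm38.p6. The build of the array design is not given, so no coordinates are printed.

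The groups were compared by lmFit and eBayes of limma 3.58.1 (R 4.3.3), without trend or filter, on all 35556 probe sets, and only the members were then read. The cut-offs were those of the study, a Benjamini-Hochberg adjusted p under 0.05 and B above 0, for which limma assumes that a share of 0.01 is changed. Unadjusted p values are given as descriptions. The script was tested on simulated data. The mice are separate animals, and their number limits the precision.

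Members were named where they passed a cut-off, were among the 10 largest differences in each direction at an unadjusted p under 0.05 without overlap of the groups, were among the 12 brightest, or stood in a list of known microRNAs or beside a named member. Members and lists were chosen with earlier results of these data known. As alternatives, probe sets at or below the median level of the table (6.91), or unlisted ones, were dropped from the fit, arrays were rescaled or weighted, moderation and the assumed share (0.05) were varied, replicate numbers entered as a block, each mouse was left out, and other limits of dimness were set.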

Additional observations from a re-analysis of the deposited data

How the results depend on the processing

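The count of microRNA genes at B above 0, which was 1, was 0 with only probe sets above the median level of all probe sets (6.91), which leaves out Mir200c itself, with median centring, with a second quantile normalization, with an intensity trend and with the replicate number as a block, and 5 with an assumed share of 0.05. Leaving out 1 mouse in turn gave 0 to 1. The 1 without WT replicate 3 was Mir181b-1 (-0.65), and Mir200c was not called in any of those 6 fits, nor with the block. No member passed an adjusted p of 0.05 in limma under any setting. The 56 members at an unadjusted p under 0.05 were 25 of the 78 members left above that median level, and 40 to 70 without 1 mouse. Their split of 9 higher and 47 lower was 16 and 28 with median centring and 11 and 34 with a second quantile normalization. The median difference of -0.088 was -0.036 with centring, where that of all probe sets was 0.037, and -0.1 to -0.072 without 1 mouse. The share above the receptor limit was 47.3% with the 90th percentile as limit. Among single genes, Mir141 had 0.019 with centring and -0.085 to 0.036 without 1 mouse (0.029 without TG-17 replicate 1), Mir200b had -0.18 to 0.053 without 1 mouse, and Mirlet7a-1 ran from -0.067 to 0.16 without 1 mouse (-0.016, -0.01, -0.055 and -0.067 where it turned). Without 1 mouse in turn, an unadjusted limma p under 0.05 was kept in 4 of 6 fits by Mir125a, in 3 by Mirlet7g and Mir194-2, in 2 by Mir365-1, Mir18, Mir132 and Mir221, and in 1 by Mir124a-2, Mir300 and Mir330. The cause of these shifts was not tested. Without moderation no B can be had, and 8 members were higher and 32 lower. Replicate numbers are shared by the labels of both groups. The deviations of same-numbered mice correlated at 0.0236, -0.000438 and 0.0565, and those of differently numbered mice at -0.0574 to 0.0335. With 3 mice per group, these correlations cannot decide whether the numbers pair the mice. With the replicate number as a block, 10 members were higher and 44 lower.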
